A study of Mus musculus with 5 samples.

Results

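The MAP kinase families and their inhibitors were read as 65 of the 12621 genes in a table of gene expression from mouse mesenchymal stem cells, the adherent stromal progenitors of connective tissue. Members were taken by symbol and not by a cut on their values, but the choice was made with earlier results of these data known. They were the RAF kinases, the MAP kinases (Mapk) and the kinases above them (Map2k, Map3k, Map4k), the MAPK-activated kinases (Mapkapk), the numbered dual-specificity phosphatases (Dusp), and the Sprouty (Spry) and Spred proteins. Family members outside these 65 are not analysed here. The cells were wild type or knockout for TSG-6, a secreted hyaluronan-binding protein encoded by Tnfaip6, and the strain given for both groups is Balb/c (C.129S6). Poly(A) RNA was sequenced in 2 wild-type and 3 knockout libraries, although the design text speaks of a pair of replicates per cell type. The libraries are named C1 and SE in the wild type (WT) and C1, C2 and SE in the knockout (KO), and the labels do not say what these suffixes mean or which libraries came from separate cultures or animals. P-values therefore measure the spread between these libraries, which may be technical. Neither a treatment, a time nor an age of the animals is labelled.

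MAP kinases are the last step of relays in which each kinase phosphorylates and switches on the next. Growth factor receptors act through Ras, RAF, MEK (Map2k1, Map2k2) and ERK (Mapk3 among them), while stress and cytokines act through MAP3Ks on the JNK and p38 branches. Dual-specificity MAPK phosphatases remove the activating phosphates from the threonine and tyrosine of the activation loop, and Sprouty and Spred proteins restrain Ras and RAF. ERK signalling induces the transcription of many of these inhibitors, which makes them a negative feedback. Messenger RNA levels, as measured here, do not report phosphorylation or kinase activity.

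Reads assigned to genes ran from 13605555 to 26658725 per library, and each value is a read count divided by a scaled library size. Tnfaip6 had 6.04 and 3.21 in the wild type and 1.65, 2.38 and 1.36 in the knockout, which did not pass the test (limma, adjusted p = 0.0578), and the labels do not say which stretch of the gene was deleted. Replicates differed by more than counting noise, and KO C1 and KO C2 were the closest replicates (chi-square per degree of freedom 62.3, against 139 to 220 for the other replicate pairs). The sums of 14 stromal markers of 15 listed were 5934 and 6276 in the wild type and 8582 to 26829 in the knockout. Without Col1a1 and Col1a2 the sums of the other 12 were 5737 and 6230 against 5443 to 6207. Cd44 read 385 and 325 in the wild type and 28.6 to 40.5 in the knockout, and Ly6a read 412 and 284 against 17.3 to 48.4. In all libraries the markers Vim, Itgb1 and Prrx1 were read at 81.9 or more, but Nt5e and Alcam, at 35.6 to 121 in the wild type, were at 0.946 or less in the knockout. Of 6 adipocyte markers all 6 were read, with sums of 51.1 and 79.2 in the wild type and 4383 to 10570 in the knockout. The sums of 4 smooth muscle markers of 5 listed were 49.2 and 65.3 against 3097 to 6604, with Acta2 making up most of them. Those of 3 epithelial and mesothelial markers of 7 were 321 and 368 against 2.51 to 5.88, with Krt18 at 0 in the knockout. Of 12 haematopoietic markers 5 were read, with sums of 201 and 242 against 50.1 to 59.1 and Cd34 at 0 in the knockout, but Lyz2, at 0.162 and 0 in the wild type, read 24.4 to 34.2 there. Of 7 endothelial markers 1, Vwf, was read, at 3.80 or less. The part of these marker differences in the results was not tested, and in bulk RNA fewer cells of a type and less RNA per cell cannot be told apart.

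Knockout libraries had more RNA of 3 members and less of 14 than the wild type, at adjusted p-values below 0.05 (limma on log2 of the value plus 0.5, Benjamini-Hochberg over all tested genes). Of the 65 members 64 passed the filter on low values, and the 65th was Dusp9. Among all 12484 tested genes 34.3% were called, 17.2% higher and 17.1% lower, against 26.6%, 4.69% and 21.9% of the members. The median log2 fold change was -0.42 over the members and -0.09 over all tested genes. For 37 members the range of the knockout values did not overlap that of the wild type (57.8%, against 58.8% of all tested genes). In the knockout 26 of these were lower (40.6%, against 30.7%) and 11 higher (17.2%, against 28%). The 39 kinases gave 2 higher (5.13%) and 6 lower (15.4%), against 17.2% and 17.1% of all tested genes. Of the 16 MAPK phosphatases, Sprouty and Spred genes, 15 were tested, with 7 lower (46.7%) and 0 higher. For these inhibitors the count of higher genes was 0 in edgeR and 1 in DESeq2, and 1, Spry1, rose at an unadjusted p under 0.05. Of lower members there were 9 without KO C2, 10 without KO C1 and 21 without KO SE, against 14 with all libraries. Lower calls among all genes were 1280, 1624 and 2632 in these fits, against 2129. Both counts fell without WT C1 or WT SE, which left 1 wild-type library. DESeq2 called 5 members higher (20.8% of all tested genes) and 15 lower (17.9%), and the fit without both SE libraries called 4 higher (21%) and 17 lower (21.5%). Lower members rose to 25, with 9 higher, when the suffix (C or SE) was a block in the fit (all tested genes: 32.3% lower, 28.3% higher), and all 17 members called without the block were called with it.

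**Figure D1:**
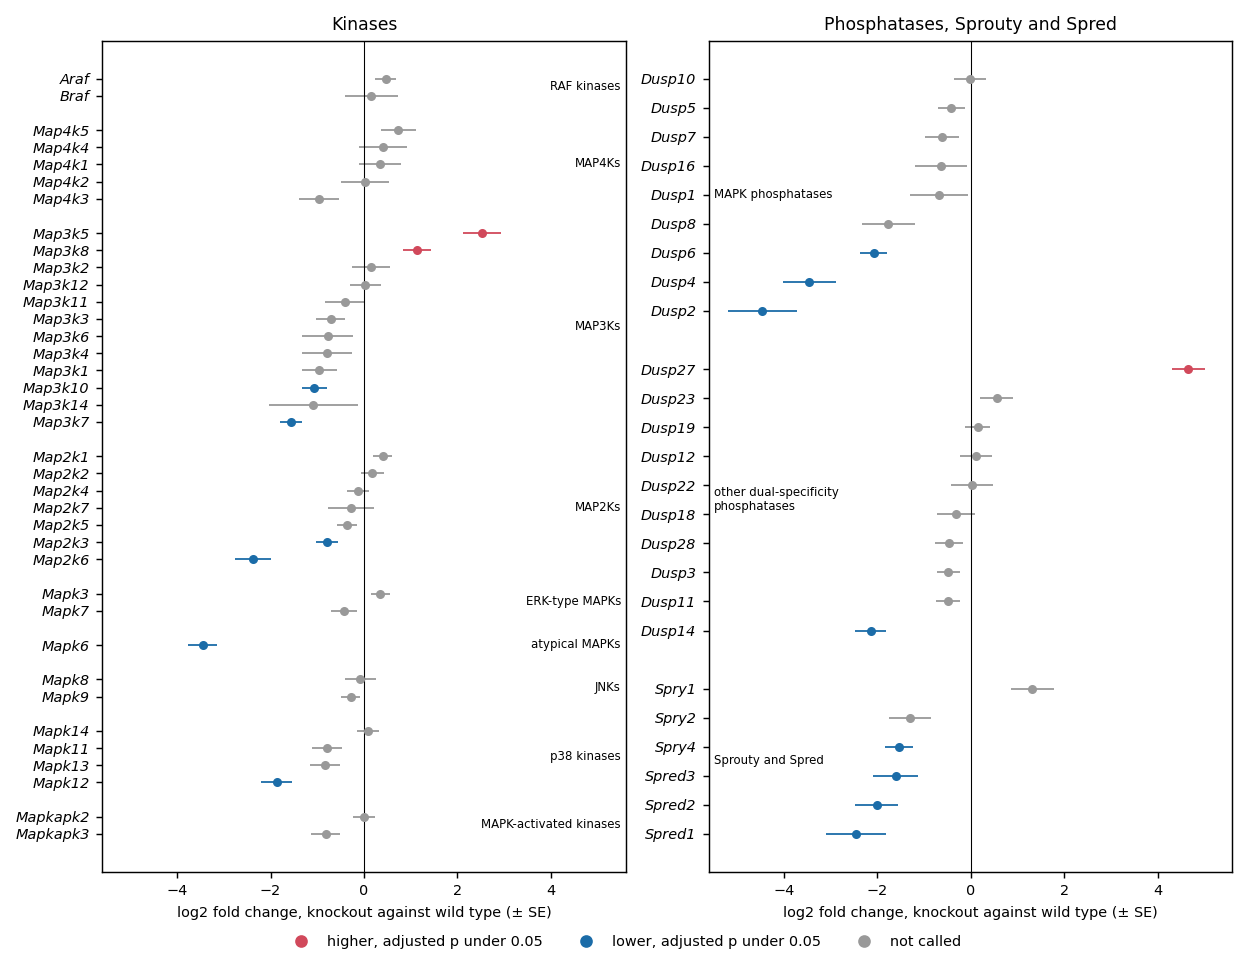
Log2 fold change (± SE) of 62 tested members, knockout against wild type, in 2 panels for kinases and for phosphatases, Sprouty and Spred. Coloured points passed an adjusted p under 0.05; the ERK-type MAPKs, RAF kinases and MAP2Ks lie within 1 log2 unit of 0 except Map2k6 at -2.37, while Dusp2, Dusp4, Dusp6 and the Spred genes lie at -1.60 or below.

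The MAPK phosphatases that fell were Dusp6, Dusp4 and Dusp2. They were 33.3% of the 9 tested, against 17.1% lower calls among all tested genes. Dusp6, a cytoplasmic phosphatase selective for ERK (chromosome 10, 99263231 to 99267489, plus strand; all coordinates are GRCm38), read 437 and 271 in wild-type libraries as against 97.7, 79.1 and 68.5 in knockout libraries. The groups were well apart, with means of 354 ± 117 (SD, n = 2) and 81.8 ± 14.8 (SD, n = 3), a 4.33-fold fall and a log2 fold change of -2.08 (SE 0.29, limma adjusted p = 0.00263). Dusp4, a nuclear phosphatase of ERK and other MAP kinases (chromosome 8, 34807297 to 34819894, plus strand), read 45.6 and 67.0 in the wild type and 2.40, 10.1 and 3.73 in the knockout. KO C2 stood above the other knockout libraries but far below the wild type, and the 10.4-fold fall of the means (log2 fold change -3.46, SE 0.57, limma adjusted p = 0.00503) was 18.4-fold without KO C2. Dusp2, a nuclear phosphatase first known from activated immune cells (chromosome 2, 127336159 to 127338376, plus strand), read 50.1 in WT C1 and 7.25 in WT SE, against 0.517, 0.265 and 0.430 in the knockout. The wild-type libraries differed widely from each other, and every knockout library was below both. Only the wild-type values carried Dusp2 past the filter on low values. Its log2 fold change was -4.46 (SE 0.74, limma adjusted p = 0.00513), and the fold of means, 70.9, was 17.9 without WT C1 and 124 without WT SE.

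The other MAPK phosphatases did not pass the test. Dusp1, an immediate early gene and the most abundant member per kilobase of exon (318 in wild-type and 191 in knockout cells on average), read 1568 and 536 in the wild type and 856, 751 and 288 in the knockout. Its groups overlapped (limma adjusted p = 0.434), and the values moved with the suffix: both SE libraries were below all C libraries. Within the suffixes Dusp1 was 1.95-fold lower in the C and 1.86-fold lower in the SE libraries, and with the suffix as a block it was called (log2 fold change -0.94, adjusted p = 0.00118). Dusp8, which acts on JNK and p38, had 2.92 and 4.35 against 0.423, 0.227 and 2.08 and did not pass (limma adjusted p = 0.0522). Dusp5, a nuclear ERK phosphatase that ERK induces, had overlapping groups, at 55.0 and 83.7 against 43.4, 60.6 and 49.9. Dusp7, Dusp10 and Dusp16 also overlapped, with log2 fold changes of -0.62, -0.01 and -0.64. With the suffix as a block Dusp8 and Dusp7 were called lower (adjusted p = 0.00843 and 0.0231). Dusp9 was near the limit of reading, with 3 and 2 reads in the wild type and 8, 12 and 17 in the knockout, and was not tested.

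All 3 Spred genes and Spry4 fell, while Spry1 and Spry2 did not pass the test. Lower calls were thus 66.7% of these 6 genes, against 17.1% of all tested genes. Spred1, which brings the Ras-inactivating protein neurofibromin to the membrane (chromosome 2, 117121374 to 117182279, plus strand), read 136 and 313 in the wild type and 23.6, 25.2 and 86.6 in the knockout. The SE library was the highest of each group and the groups did not overlap, with a log2 fold change of -2.45 (SE 0.64, limma adjusted p = 0.0269). The fold of means, 4.97, was 3.00 without WT SE and 9.20 without KO SE, and the call was lost without WT SE (adjusted p = 0.134), KO C1 (0.0558) or KO C2 (0.0823). Spred2, a related inhibitor of Ras and RAF, read 17.1 and 17.8 against 3.20, 2.497 and 7.38 (log2 fold change -2.02, SE 0.46, limma adjusted p = 0.0168). Its fold of means was 6.12 without KO SE, more than 1.5 times that with all libraries. Without WT C1, WT SE or KO C2 the adjusted p of Spred2 was 0.0794, 0.0836 and 0.0519. Spred3, the least abundant of the 3, read 4.34 and 6.11 against 0.987, 0.757 and 2.94 (limma adjusted p = 0.0438). It was called in 8 of 15 alternative fits, with adjusted p between 0.00225 and 0.209, and its 3.35-fold fall was 5.99-fold without KO SE. Its gene overlaps Ggn on the opposite strand, and whether the counting used strand is not stated.

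Spry4, which blocks growth factor signalling to Ras and RAF (chromosome 18, 38586247 to 38601415, minus strand), was even within both groups. It read 32.5 and 30.7 in the wild type and 8.37, 11.1 and 12.8 in the knockout, a 2.94-fold fall (log2 fold change -1.53, SE 0.29, limma adjusted p = 0.00919). The adjusted p was 0.0696 without WT C1 and 0.0620 without WT SE. Its fall ran against its surroundings: the median log2 fold change of the 50 nearest tested genes was 0.73. Spry2 read 9.44 and 3.47 against 2.40, 1.55 and 2.29, and Spry1 read 1.34 and 2.02 against 4.61, 2.84 and 8.53. Neither passed the threshold (limma adjusted p = 0.0657 and 0.0701), although the groups overlapped in neither. With the suffix as a block Spry2 was called lower (adjusted p = 0.0228) and Spry1 higher (adjusted p = 0.00725).

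**Figure D2:**
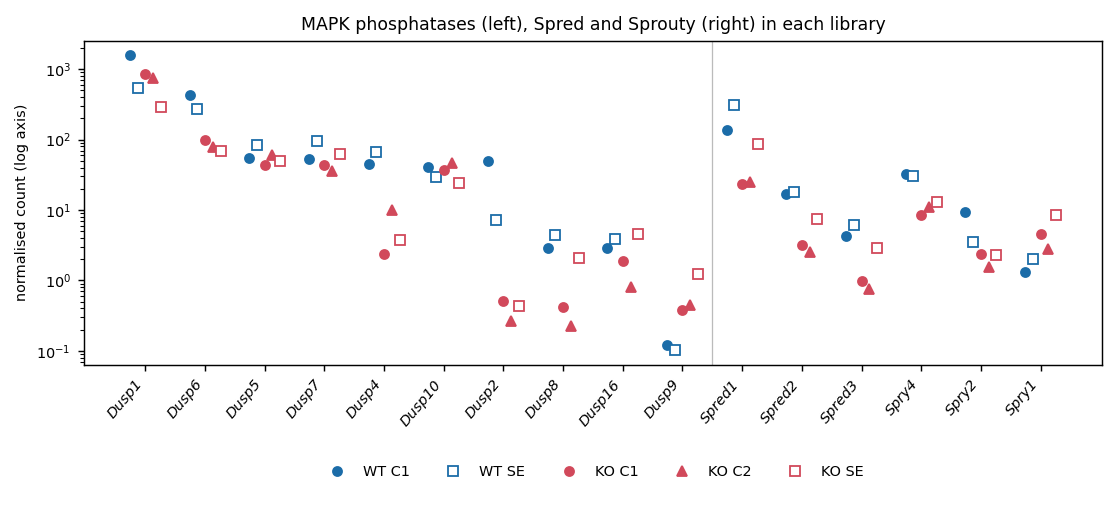
Normalised counts (log axis) of the 10 MAPK phosphatases and of the Spred and Sprouty genes in each of the 5 libraries, with wild type in blue, knockout in red and SE libraries as open squares. For Dusp6, Dusp4, Dusp2, the 3 Spred genes and Spry4 all knockout points lie below both wild-type points, while for Dusp1 the SE points lie lowest in each group.

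The upstream sequences of 4 of these inhibitors, all called lower, are shown as examples. ERK can act on transcription through ETS factors, whose sites centre on GGAA. Any part of such sites in the falls was not tested. Each is the 250 bases before the RefSeq start site (GRCm38.p6), 5′ to 3′ on the gene's strand, with CGGAAG on either strand in capitals. They lie at chr10:99262981-99263230 (plus strand, Dusp6), chr2:117120821-117121070 (plus, Spred1), chr2:127335909-127336158 (plus, Dusp2) and chr7:29168648-29168897 (minus, Spred3).
Dusp6: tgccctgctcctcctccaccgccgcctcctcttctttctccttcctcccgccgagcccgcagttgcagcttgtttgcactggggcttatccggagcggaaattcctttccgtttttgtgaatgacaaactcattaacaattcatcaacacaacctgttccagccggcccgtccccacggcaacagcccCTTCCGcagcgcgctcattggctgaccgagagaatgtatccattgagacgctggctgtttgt
Spred1: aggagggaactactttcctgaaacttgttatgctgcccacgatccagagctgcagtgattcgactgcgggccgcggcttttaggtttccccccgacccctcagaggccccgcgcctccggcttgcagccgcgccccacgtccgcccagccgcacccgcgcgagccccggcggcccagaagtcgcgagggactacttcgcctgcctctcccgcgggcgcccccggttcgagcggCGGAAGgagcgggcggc
Dusp2: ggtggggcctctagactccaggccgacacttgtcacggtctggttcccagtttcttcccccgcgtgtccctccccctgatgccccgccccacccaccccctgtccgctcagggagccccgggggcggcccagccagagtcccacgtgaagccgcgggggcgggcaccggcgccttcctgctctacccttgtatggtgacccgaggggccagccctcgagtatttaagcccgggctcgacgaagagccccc
Spred3: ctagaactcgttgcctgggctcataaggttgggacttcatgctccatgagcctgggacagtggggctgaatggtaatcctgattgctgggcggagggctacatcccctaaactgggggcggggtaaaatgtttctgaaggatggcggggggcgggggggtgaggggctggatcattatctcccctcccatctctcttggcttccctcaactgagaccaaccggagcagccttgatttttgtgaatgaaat
CGGAAG stood once in the windows of Dusp6 and Spred1, 62 and 17 bases before the start counted from the match's first base, and not in those of Dusp2 and Spred3. Spred2, also called lower, had it once as well, at 43 bases, in a window not shown. The shorter core GGAA was not scanned, and uncapitalised GGAA or its reverse complement TTCC stands in all 4 windows. TGACGTCA (the cyclic AMP response element), TGANTCA (AP-1) and the CArG box of serum response factor, searched on both strands, stood in none of the 4. Start-site windows were given for 55 of the 65 members, 66 windows in all. CGGAAG was in 16.7% of the members' windows and in 13.6% of 32841 windows of all genes. TGACGTCA was in 4.55% against 1.55%, TGANTCA in 4.55% against 6.75%, and the CArG box in 1.52% against 1.47%. GGGCGG (the GC box of Sp1-type factors), searched in the same way and not capitalised above, was in 63.6% of the members' windows against 32.7% of all, and stood 3 times in the windows of Dusp2 and Spred3, 2 times in that of Spred1 and not in that of Dusp6. Windows of all genes were not limited to genes read here, and the shares were not matched for GC content. A match describes letters only and is not a bound site.

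Of the core ERK relay, Map2k1, Map2k2, Mapk3, Araf and Braf were not called different. Per kilobase of annotated exon, the wild-type means were 53.6 for Map2k1 and 44.9 for Map2k2, the MEK kinases, and 41.6 for Mapk3 (ERK1). The RAF kinases Araf and Braf were lower, at 16.9 and 1.37. Mapk3 read 97.4 and 90.4 in the wild type and 108, 132 and 121 in the knockout, and Map2k1 read 181 and 183 against 238, 236 and 246. All knockout values of both genes were above all wild-type values, with small spreads, yet the log2 fold changes of 0.35 and 0.40 did not pass (limma adjusted p = 0.240 and 0.163). With the suffix as a block Map2k1 was called higher (adjusted p = 0.0175).

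Map2k2 had overlapping groups at 287 and 221 against 320, 304 and 238. Braf overlapped, at 12.7 and 25.2 against 15.2, 12.7 and 41.2, with the SE library highest in each group. Araf, on chromosome X, read 122 and 98.8 against 162, 160 and 136 (limma adjusted p = 0.150), and was called higher with the suffix as a block (adjusted p = 0.0158). Mapk7, the ERK5 kinase, and its activator Map2k5 were not called either, at log2 fold changes of -0.43 and -0.36. Under the block Map2k5 was called lower (adjusted p = 0.0445).

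The atypical kinase Mapk6 (ERK3), a short-lived protein that signals with the kinase MK5 (Mapkapk5) and not through MEK, showed the largest fall of any kinase here (chromosome 9, 75369062 to 75410005, minus strand). It read 371 and 576 in the wild type and 32.7, 39.6 and 56.0 in the knockout. The wild-type mean of 474 ± 145 (SD, n = 2) fell 11.1-fold to 42.8 ± 11.9 (SD, n = 3), with a log2 fold change of -3.45 (SE 0.32, limma adjusted p = 0.000521). The fall was 10.3-fold within the C and within the SE libraries, and the call held in 17 of 17 alternative fits. Per kilobase of exon Mapk6 stood at 71.0 in the wild type, above Mapk3, and at 6.41 in the knockout, below Mapk3 at 53.3. Its gene overlaps 2 processed pseudogenes on the same strand, and how reads were divided among them is not stated.

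In the p38 branch, 1 kinase and 2 activators fell. Lower calls were 25% of the 4 p38 kinases and 28.6% of the 7 MAP2Ks, against 17.1% of all tested genes. Higher calls were 0% in both, against 17.2%. Mapk14 (p38 alpha), the widely expressed p38 kinase, read 61.9 and 74.7 against 61.1, 76.6 and 80.1, with overlapping groups (log2 fold change 0.08, SE 0.24, limma adjusted p = 0.816). Mapk12 (p38 gamma), known for its high level in muscle, read 27.6 and 24.1 in the wild type and 6.40, 9.04 and 5.16 in the knockout. This was a clear gap, a 3.77-fold fall with a log2 fold change of -1.87 (SE 0.33, limma adjusted p = 0.00660), which missed the threshold without WT C1 (adjusted p = 0.0556). Mapk11 (p38 beta), whose gene ends 1782 bases from that of Mapk12 on chromosome 15, read 26.2 and 34.4 against 17.8, 21.8 and 12.8. Mapk13 (p38 delta) read 2.23 and 2.12 against 1.46, 0.643 and 1.00. Groups overlapped in neither, and neither was called (limma adjusted p = 0.102 and 0.0865), but Mapk11 was called lower with the suffix as a block (adjusted p = 0.0298).

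Map2k6, an activating kinase of p38 (chromosome 11, 110399122 to 110525522, plus strand), read 17.5 and 12.1 against 3.39, 2.57 and 1.58. All knockout values were far below, a 5.90-fold fall with a log2 fold change of -2.37 (SE 0.38, limma adjusted p = 0.00457). Map2k3, the other dedicated p38 activator, was far more abundant, at 102 per kilobase of exon in the wild type against 4.30 for Map2k6. It read 371 and 307 against 230, 183 and 177, a 1.72-fold fall (limma adjusted p = 0.0409). Map2k3 was not called without any 1 of the 5 libraries, without a variance trend or after centring on each chromosome (10 of 17 alternative fits called it; adjusted p between 0.00238 and 0.389). Of the MAPK-activated kinases, Mapkapk2 was level (112 and 141 against 118, 112 and 149), and Mapkapk3 read 8.27 and 8.39 against 4.51, 5.49 and 3.65 (limma adjusted p = 0.0804; 0.0222 with the suffix as a block, lower).

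The JNK branch was not called at the level of its kinases. Mapk9 (JNK2) read 101 and 102 in the wild type and 81.6, 83.1 and 84.8 in the knockout, tight groups that did not overlap (log2 fold change -0.29, limma adjusted p = 0.303). After centring on each chromosome its log2 fold change was 0.09. Mapk8 (JNK1) was lower per kilobase of exon, at 0.846 against 14.97 for Mapk9 in the wild type, and overlapped at 9.20 and 10.2 against 7.24, 8.74 and 12.0. The JNK activators Map2k4 and Map2k7 overlapped as well, with log2 fold changes of -0.12 and -0.28.

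**Figure D3:**
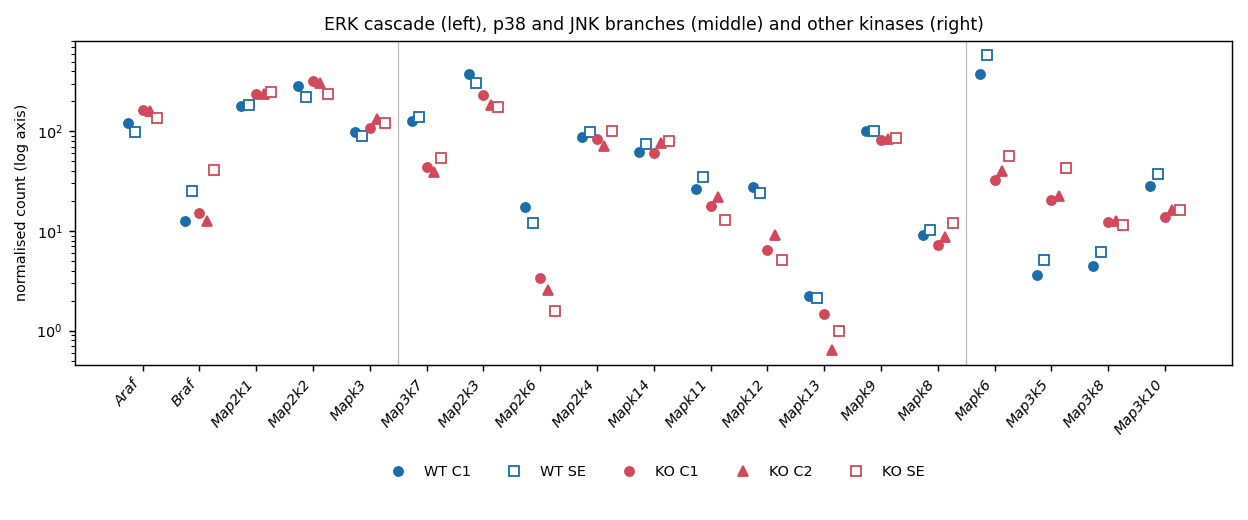
Normalised counts (log axis) of 19 kinases in each of the 5 libraries, with the ERK relay on the left, the p38 and JNK branches in the middle and other kinases on the right. Wild-type and knockout points lie close for Map2k2 and Mapk14, and stand furthest apart for Mapk6, Map2k6 and Map3k5.

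Of 12 MAP3Ks, 2 rose and 2 fell, a share of 16.7% each way that is near the 17.2% and 17.1% of all tested genes. Map3k7 (TAK1), which carries signals of TGF-beta, IL-1 and TNF receptors to JNK, p38 and NF-kB (chromosome 4, 31964097 to 32023467, plus strand), read 128 and 140 in the wild type and 43.9, 38.9 and 54.0 in the knockout. Both groups were even and far apart, with a 2.93-fold fall and a log2 fold change of -1.55 (SE 0.24, limma adjusted p = 0.00368). The 50 tested genes nearest to Map3k7 had a median of -0.81, and after centring on each chromosome Map3k7 was still called. Over the 17 alternative fits its log2 fold change ran from -1.68 to -0.96. Map3k10 (MLK2), a mixed-lineage kinase that activates JNK, read 28.4 and 37.6 against 13.7, 16.4 and 16.3 (limma adjusted p = 0.0260). Its call was lost without either wild-type library, without KO C1 or KO C2, and after centring (adjusted p between 0.0524 and 0.192 in these 5 fits). Ttc9b overlaps it on the opposite strand.

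Map3k5 (ASK1), a kinase activated by oxidative stress (chromosome 10, 19934472 to 20142753, plus strand), read 3.65 and 5.08 in the wild type and 20.6, 22.6 and 43.0 in the knockout. Every knockout library was far above both wild-type libraries, with a 6.59-fold rise and a log2 fold change of 2.52 (SE 0.40, limma adjusted p = 0.00444). The surrounding 50 tested genes had a median of 0.97. Map3k8 (Tpl2, or Cot), an activator of MEK in inflammatory signalling, rose 2.29-fold, from 4.46 and 6.11 to 12.3, 12.6 and 11.4 (limma adjusted p = 0.0261). It was not called without either wild-type library, KO C1 or KO C2 (adjusted p between 0.0776 and 0.181). The remaining 8 MAP3Ks had log2 fold changes between -1.08 and 0.15 and were not called, although Map3k1, Map3k3 and Map3k4 were called lower with the suffix as a block (adjusted p = 0.0268, 0.00671 and 0.0255). Among them Map3k14 (NIK), of the non-canonical NF-kB pathway, moved mainly with the suffix, at 28.3 and 25.01 in the SE libraries and 3.06 to 7.86 in the C libraries. None of the 5 MAP4Ks was called, with log2 fold changes between -0.96 for Map4k3 and 0.74 for Map4k5. The JNK, MAP4K and MAPK-activated kinases, with 0 calls in limma, also had 0 in edgeR and 0 in DESeq2, and 1 of them, Mapkapk3, had an unadjusted p under 0.05. With the suffix as a block Map4k3 was called lower and Map4k4 and Map4k5 higher (adjusted p = 0.0122, 0.0126 and 0.00229).

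Among the 10 other dual-specificity phosphatases, Dusp27 rose and Dusp14 fell. This was 10% each way, below the 17.2% higher and 17.1% lower of all tested genes. Dusp27, a muscle protein of this family that lacks phosphatase activity (chromosome 1, 166098148 to 166127922, minus strand), read 1.86 and 2.59 in the wild type and 55.3, 56.7 and 98.7 in the knockout. This 31.5-fold rise had the largest log2 fold change of any tested member (4.66, SE 0.36, limma adjusted p = 0.000281), and was 30.0-fold within the C and 38.1-fold within the SE libraries. The sums of smooth muscle markers moved the same way (49.2 and 65.3 against 3097 to 6604), mostly through Acta2, at 2971 to 6456 in the knockout. Tagln, Cnn1 and Des were higher there too, but at 4.09 to 122. The part of such markers in the rise of Dusp27 was not tested. Dusp14, which acts on the TAK1 and TAB1 signalling complex (chromosome 11, 84048041 to 84069261, minus strand), read 78.5 and 49.3 against 17.8, 12.8 and 11.3. The groups were apart by a 4.58-fold difference of means (log2 fold change -2.14, SE 0.33, limma adjusted p = 0.00401). The other 8, among them Dusp3 (VHR), Dusp22 and the RNA phosphatase Dusp11, had log2 fold changes between -0.49 and 0.56 and were not called.

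Across the 17 alternative fits, Mapk6, Dusp27, Dusp4, Dusp6, Dusp14, Map2k6, Map3k5 and Map3k7 were called in all 17, and Dusp2 in all 14 in which it was tested. In 3 of the 17 fits (without WT C1, without WT SE and without both SE libraries) the wild type had 1 library, which was then assumed to vary like the knockout libraries. Dusp2 was not tested in these 3 fits, because only wild-type values carried it past the filter on low values. All 17 called members lay further from 0 than the median of their nearest tested genes (at most 50), in the direction of the call. The same fit had picked these members for large changes, so this outcome was nearly set in advance. For 3 of them that median was over 0.5 in size. Of the 64 tested members, 54 (84.4%) had the same sign in the C and the SE comparison, against 87.8% of all tested genes.

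The genes around the relay were counted from lists written with earlier results of these data known. Of 22 transcripts known to be induced by ERK signalling, a list that holds 9 of the members, 15 were lower and 1 higher, with a median log2 fold change of -1.87 (all tested genes: 17.1% lower, 17.2% higher, median -0.09). Of its 13 genes that are not members, 9 were lower and 1 higher, with a median of -1.96. The count of 15 was 9 without KO C2, while lower calls among all genes went from 2129 to 1280. Both counts also fell without WT C1 or WT SE, which left 1 wild-type library. Etv4, an ETS factor of the PEA3 group, read 23.3 and 39.5 in the wild type and 0.329, 0 and 0.430 in the knockout (log2 fold change -5.40, limma adjusted p = 0.000256). Its relative Etv1 read 30.9 and 24.1 against 2.12, 3.22 and 3.58 (limma adjusted p = 0.00106). Both ETS genes were far lower in every knockout library. Etv4 passed the filter on low values only through the wild-type libraries.

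Ccnd1, the cyclin D1 gene, read 857 and 996 against 149, 127 and 101, and Il1rl1, a receptor of IL-33, read 334 and 412 against 19.8, 8.63 and 20.9 (limma adjusted p = 0.000413 and 0.000482). The list did not move as a whole: Epha4, an ephrin receptor named after its values were seen, went from 2 wild-type reads to 5.88, 3.14 and 7.45 in the knockout. Epha4 passed the filter on low values only through the knockout libraries. Egr1, an immediate early factor downstream of ERK, and Emp1, a membrane protein, were also named after their values were seen. They were not called, with log2 fold changes of 0.68 and 0.24 (limma adjusted p = 0.349 and 0.519). Egr1 read 1374 and 582 in the wild type and 2002, 1734 and 850 in the knockout, so that its SE library was the lowest of each group.

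**Figure D4:**
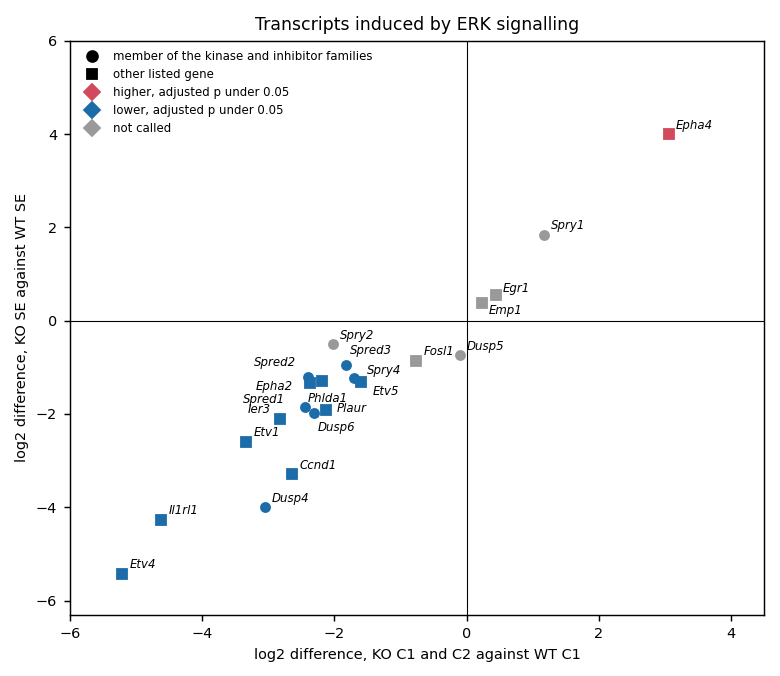
Log2 difference of the 22 transcripts induced by ERK signalling between knockout and wild type, in the C libraries (horizontal axis) and in the SE libraries (vertical axis), each on log2 of the value plus 0.5. Circles are members of the kinase and inhibitor families and squares are other genes; 18 lie below 0 on both axes and 4 (Epha4, Spry1, Egr1 and Emp1) above.

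Of 19 Ras proteins, exchange factors and adaptors tested, 3 rose (15.8%) and 2 fell (10.5%), shares below the 17.2% and 17.1% of all tested genes. Rras, an R-Ras GTPase of cell adhesion, read 59.6 and 55.6 against 192, 206 and 125, and Rasgrp2 and Rasgrp3, calcium- and lipid-responsive exchange factors, had 4 and 3 wild-type reads in all and knockout values of 1.29 to 5.66. Rasgrp2 and Rasgrp3 passed the filter on low values only through the knockout libraries. Mras, which helps to activate RAF, fell from 38.8 and 34.8 to 16.9, 16.1 and 17.3. The call of Mras was lost after centring on each chromosome and without WT C1, WT SE, KO C1 or KO C2 (adjusted p between 0.0501 and 0.117), and that of Rasgrp3 without WT C1 (0.0707). Of 13 Ras GTPase-activating proteins and other negative regulators tested, 3 rose (23.1%) and 2 fell (15.4%). Among the 3, Lztr1 stood at the threshold (limma adjusted p = 0.049996). Rasa4, a calcium-dependent Ras inactivator, read 15.7 and 27.1 against 105, 109 and 163, whereas Rasa1 (p120 RasGAP) read 179 and 263 against 56.8, 58.5 and 87.9. Pebp1, the RAF kinase inhibitor protein, read 259 and 165 against 87.5, 88.4 and 73.2, while Pea15a, which holds ERK in the cytoplasm, read 142 and 121 against 362, 294 and 210. Pea15a lost its call in the same 5 fits as Mras (adjusted p between 0.0719 and 0.146), Pebp1 after centring (0.0803) and without WT C1 (0.0899), and Rasa1 without WT SE (0.0514).

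Of 14 scaffold genes tested, only Traf2, an adaptor of TNF receptors, was called (lower, limma adjusted p = 0.048), and it was lost in 9 of 17 alternative fits. Of 7 kinases downstream of MAP kinases limma called 0, with 2 at an unadjusted p under 0.05, edgeR's quasi-likelihood test called 0, and DESeq2 called 2 higher and 1 lower. Of 15 transcription factors phosphorylated by MAP kinases, 5 fell and 0 rose by limma, edgeR and DESeq2 alike, and 0 rose at an unadjusted p under 0.05. By limma this was 33.3% lower, against 17.1% lower and 17.2% higher of all tested genes. Log2 fold changes were above 0 for 4 of the 15: Fos, Elk1, Ddit3 and Srf. Fos had the largest of these, at 2.53, but was not called (limma adjusted p = 0.234). It read 888 and 22.9 in the wild type and 1510, 1342 and 285 in the knockout. Its groups overlapped, and its SE library was the lowest of each group. Within the suffixes Fos was 1.61-fold higher in the C and 12.4-fold higher in the SE libraries. Mef2c, a target of p38 and ERK5, read 39.4 and 25.6 against 1.13, 0.416 and 1.00, and Jun, the target of JNK, read 531 and 407 against 131, 176 and 156. Myc, which ERK stabilises, read 181 and 248 against 85.3, 93.3 and 71.7, and the ETS factor Ets2 read 65.0 and 89.5 against 22.1, 16.4 and 34.9. Mef2c, Jun, Myc and Ets2 had every knockout value below every wild-type value (limma adjusted p = 0.000372, 0.0038, 0.00739 and 0.0141). Without WT SE the calls of Myc (adjusted p = 0.0663) and Ets2 (0.0909) were lost.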

How the data were processed

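Stranded libraries of messenger RNA gave single-end 75 bp reads, per the labels' protocols. The submitters' processing notes name the tools STAR 2.5, edgeR and featureCounts 1.5.2, without role or order; build, annotation and strand setting of the counting are not given in the sources used here. The deposited values are a signal: read counts per gene divided by a scaled library size, made by the authors on the scale of CPM, with sums of 931660 to 1052926 per library. Whole reads (within 0.02) were recovered for 100% of values, 13605555 to 26658725 per library. The lowest gene maximum was 0.984, so lower genes are not analysed here. Columns name groups but no replicate numbers.

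The test was limma 3.58.1 (trend) on log2(value + 0.5) for genes of at least 1 in at least 2 libraries, 3 residual degrees of freedom, adjusted by Benjamini-Hochberg over 12484 genes, threshold 0.05. Folds are ratios of group means. Alternatives used edgeR 4.0.16 and DESeq2 1.42.0 on the recovered reads, other scalings, pseudocounts, filters, a suffix block and each library left out. The fit without both SE libraries was chosen after seeing the data. Tests were checked on simulated data with equal variability for every gene and no difference by suffix. That check does not cover the spread seen between these libraries. Coordinates and exon lengths came from GENCODE M21 (12612 genes matched). Named members were up to 6 called per role with the largest change plus core kinases, and up to 4 called genes per list with the smallest p; others are named to account for every role. Some members are counted but not reported by name here. Members, lists and tests were chosen with earlier results of these data known. Calculations used R 4.3.3 and Python 3.11.15.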

Additional observations from a re-analysis of the deposited data

How the results depend on the processing

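No paired analysis was possible because the columns carry none of the labels' replicate numbers. The suffixes that columns of both groups share (C or SE) could be fitted as a block, although the labels do not say what they mean. With this block, members higher and lower were 9 and 25, all genes 3530 and 4038, and genes of the pathway lists 23 and 30. DESeq2 gave 5 higher members, 12 higher pathway genes, and the fit without both SE libraries 12 higher pathway genes; a filter at 5 gave 4, with fewer genes tested. The cause of the other shifts was not tested. Leaving out single libraries gave 2 to 3 higher and 7 to 21 lower members, 1049 to 2332 higher and 594 to 2632 lower genes in all, and 5 to 8 higher and 8 to 26 lower pathway genes. Of the 14 lower members, 12 to 14 were also called lower in each fit that kept all libraries, and 7 to 13 with 1 library left out. Some log2 fold changes of uncalled members turned sign, among the named kinases as follows; Dusp22 was -0.12 under the suffix block, against 0.03. Centring on each chromosome gave -0.0057 for Braf, -0.26 for Map2k2 and 0.0946 for Mapk9. With single libraries left out, Braf ran from -0.36 (without KO SE; -0.33 without WT C1) to 0.63, Map2k2 from -0.0116 (without WT SE) to 0.37, Mapk14 from -0.0507 (without WT C1) to 0.22 and Mapk8 from -0.27 to 0.0825 (without KO C1), and DESeq2 gave 0.0020 for Mapk8. The shallowest library, KO SE, makes 1 read worth a normalised count of 0.0717, so values of members such as Dusp2 and Dusp9 in the knockout rest on few reads; a count covers counting error only.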
